A study of Mus musculus with 12 samples.

Results

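The genes described here encode the machinery that starts transcription of protein-coding genes, namely RNA polymerase II (Pol II), Mediator and the factors associated with the TATA-binding protein (Tafs). They were taken by name from the deposited expression table, as the protein-coding genes called Polr2 with a letter from a to m, Med with a number, or Taf with a number. This gave 66 of the 54345 genes in the table, of which 22058 are protein-coding, with 13 Pol II genes, 30 Mediator genes and 23 Taf genes. The names gather more than the complexes themselves. Polr2m encodes a protein that associates with Pol II, Taf1a, Taf1b, Taf1c and Taf1d belong to the Pol I factor SL1, Taf5l and Taf6l belong to the coactivator SAGA, and Taf15 encodes an RNA-binding protein of the FET family. The remaining 16 Taf genes encode TFIID subunits and their tissue paralogs.

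Pol II synthesises messenger RNA and is built from a large catalytic subunit and a set of smaller ones, some of which it shares with Pol I and Pol III. TFIID, made of the TATA-binding protein and the Tafs, recognises the core promoter. Mediator passes signals from activators to the polymerase through its head, middle and tail, which are held together by a scaffold subunit, and it carries a detachable kinase module. Doxorubicin, an anthracycline used against cancer that can damage the heart, intercalates into DNA and poisons topoisomerase II.

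Messenger RNA was sequenced from H9c2(2-1), a wild-type myoblast line, in 4 groups of 3 libraries taken 6 h into treatment. The groups were untreated cells (Unt), cells given doxorubicin (DOX), cells given DOX with the cardioprotective drug dexrazoxane (D_DXZ), and cells given DOX with magnesium hexacyanoferrate nanocatalysts (D_MgHCF). A single cell line was used, the labels and the table name mouse whereas the paper describes the line as rat, and the doses in the sequenced cells are not given in the sources used here. Whether rat reads were aligned to mouse genes, and what that would do to the level of each gene, was not tested, and the promoters shown are those of the mouse reference. Muscle genes were sparse, as Myod1, Myog, Myf5, Myf6 and Actc1 were at or near 0 and 2 of 12 muscle markers (Gata4 and Des) reached 1 FPKM in Unt. The summed level of 5 fibroblast markers was 60.9 to 66.6 FPKM in Unt and 140.2 to 177 FPKM in DOX, against 108 to 152 FPKM in D_DXZ and 30.4 to 63.8 FPKM in D_MgHCF, and that of the muscle markers was 12.3 to 13.4, 4.14 to 7, 3.8 to 5.7 and 17.2 to 29.2 FPKM in the same order. The muscle sum was mostly Gata4, and Tnnt2 went the other way, at most 0.19 FPKM in Unt and at least 0.855 FPKM in DOX. Collagen genes made up nearly all of the fibroblast sum, while Pdgfra was at least 0.592 FPKM in Unt and at most 0.405 FPKM in DOX. Endothelial and epithelial markers summed to at most 0.989 and 1.28 FPKM and macrophage markers to at most 4.79 FPKM in any library. Mitochondrial genes took 1.19 to 1.41% of reads in Unt and 2.73 to 2.89% in DOX, and 2.73 to 3.27% in the D_DXZ and 1.76 to 3.16% in the D_MgHCF libraries. Reads on Rn7sk, the 7SK RNA that restrains an elongation factor, were at most 0.000154% in Unt and 0.000271% in D_MgHCF, but 0.0297 to 0.06% in DOX and 0.0212 to 0.0403% in D_DXZ. The marker sums and these shares differed between groups, and their part in the results was not tested. In bulk RNA, fewer cells of a type and less RNA per cell cannot be told apart.

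Levels are given as FPKM, that is, reads per length of gene corrected for library size, and rested on 16626514 to 19365119 reads on genes per library. Differences are on the log2(FPKM + 1) scale with their SE. The library correction in the deposited values gives all libraries the same middle level, and it departed from the read totals in opposite ways, by a factor of at least 1.26 in Unt and D_MgHCF and of at most 0.892 in DOX and D_DXZ. With TPM, which fixes the library total instead, the median difference of the 11515 genes with a mean of at least 1 FPKM moved from 0.05 to -0.91 in DOX against Unt and from -0.09 to 0.75 in D_MgHCF against DOX. The corresponding TPM medians were -0.86 for D_DXZ against Unt, -0.20 for D_MgHCF against Unt, 0.65 for D_MgHCF against D_DXZ and 0.05 for D_DXZ against DOX. D_MgHCF replicate 3 stood apart from the other libraries of its group, where Pearson's r across genes ranged from 0.942 to 0.984. The labels do not say that the libraries came from separate cultures, so p-values measure the spread between these libraries, which may be technical.

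Before the values, the promoters of 7 members with large differences are shown, 3 that were higher in DOX (Polr2l, Taf13 and Taf10), 3 that were lower in DOX (Taf5l, Taf8 and Med18) and Polr2a, which was higher in D_MgHCF. Each is the run of 150 bases before the RefSeq start (GRCm38.p6), written in the direction of the gene. Capitals mark matches on either strand to the letters TATAAA for the TATA box, to CCAAT for the box of that name, to GGGCGG for the GC box, to CCGGAAG for the site of ETS factors, to CACGTG for the E-box, and to TGACGTCA for the CRE, and none of these contains another.
Polr2l, chr7:141475154-141475303, minus strand: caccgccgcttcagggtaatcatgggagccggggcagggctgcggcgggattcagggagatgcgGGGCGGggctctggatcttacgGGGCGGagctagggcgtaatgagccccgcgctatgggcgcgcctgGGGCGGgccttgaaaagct
Taf13, chr3:108571549-108571698, plus strand: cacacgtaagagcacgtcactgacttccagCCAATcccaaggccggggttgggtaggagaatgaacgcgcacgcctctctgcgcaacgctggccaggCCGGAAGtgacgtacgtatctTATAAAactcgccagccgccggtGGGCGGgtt
Taf10, chr7:105744339-105744488, minus strand: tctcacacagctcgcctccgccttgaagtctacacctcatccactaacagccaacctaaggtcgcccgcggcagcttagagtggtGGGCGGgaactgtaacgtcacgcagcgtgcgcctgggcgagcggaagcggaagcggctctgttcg
Taf5l, chr8:124021398-124021547, minus strand: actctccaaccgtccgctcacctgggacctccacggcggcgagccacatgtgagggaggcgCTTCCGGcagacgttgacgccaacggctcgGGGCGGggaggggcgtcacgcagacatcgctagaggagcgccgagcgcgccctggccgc
Taf8, chr17:47502292-47502441, minus strand: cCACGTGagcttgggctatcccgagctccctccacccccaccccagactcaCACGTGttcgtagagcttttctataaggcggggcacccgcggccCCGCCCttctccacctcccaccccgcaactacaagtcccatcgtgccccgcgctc
Med18, chr4:132463922-132464071, minus strand: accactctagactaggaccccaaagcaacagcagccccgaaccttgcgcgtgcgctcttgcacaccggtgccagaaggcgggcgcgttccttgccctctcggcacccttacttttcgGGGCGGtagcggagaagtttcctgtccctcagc
Polr2a, chr11:69758634-69758783, minus strand: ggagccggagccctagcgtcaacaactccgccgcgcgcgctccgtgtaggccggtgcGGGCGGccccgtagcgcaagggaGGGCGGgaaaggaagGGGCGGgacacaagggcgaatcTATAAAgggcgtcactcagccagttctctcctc

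These promoters differed in kind. The Polr2l run held 3 GC boxes and no TATA box, whereas the Taf13 run held a CCAAT box, an ETS site, a TATA box and a GC box. The Polr2a run held 3 GC boxes and a TATA box, the Taf8 run matches to the E-box and the GC box, and the Taf10 and Med18 runs a GC box alone. A RefSeq promoter was matched for 56 of the 66 members (none for Med23, Med24, Med30, Med8, Polr2d, Polr2g, Polr2k, Taf2, Taf4b and Taf7), and 300 bases, from 250 before to 50 after the start, were searched in each. GC box letters occurred in 71.4% of the members' promoters, 69.1% of 8091 promoters of genes with a mean of at least 1 FPKM and 43.1% of all 20122 promoters. ETS letters occurred in 33.9%, 20.3% and 11%, and TATA box letters in 14.3%, 6.4% and 13.2%. For CCAAT the shares were 35.7%, 39.7% and 38.3%, for the E-box 16.1%, 11% and 7.69%, and for the CRE 1.79%, 3.5% and 2.24%. GC box letters were found in 8 of 13 promoters of members higher in DOX and in 16 of 20 of members lower in DOX, and ETS letters in 4 and 9. A match describes letters and is no evidence of binding.

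In untreated cells the members spanned a wide range. Med30, a Mediator subunit of animals, was the highest at 114 ± 2.45 FPKM (SD, n = 3), followed by Polr2m at 95.3 ± 5.34, Taf2, a TFIID subunit that contacts the initiator, at 94.9 ± 2.32, and Polr2g, a subunit of the Pol II stalk, at 82.8 ± 4.8. Polr2m, at 91.2, 93.3 and 101 FPKM, and Taf2, at 95.3, 97.1 and 92.5 FPKM, overlapped. The catalytic subunit Polr2a was at 43.5 ± 2.21 FPKM. In all, 60 of the 66 members had a mean of at least 1 FPKM in Unt. At the low end, Med10 held at most 1 read in any library and was not tested, leaving 65 members, and 92.8% of its exonic bases lie opposite an overlapping gene. Taf9 held at most 12 reads, and 73.8% of its exonic bases are shared with Ak6.

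The comparison of DOX with Unt asks how the drug changed these messages. Of the 65 members tested, 19 were higher and 24 lower (limma, Benjamini-Hochberg adjusted p under 0.05 over 25044 genes), beside 18.6% higher and 19.9% lower of all genes tested and 36.7% and 33.3% of the genes with a mean of at least 1 FPKM. Of the Pol II genes, 7 of 13 were higher and 0 lower as deposited. Without D_MgHCF replicate 3, or in a fit of Unt and DOX alone, 3 were lower, and with TPM 1 was higher and 7 lower. Mediator had 7 of 29 higher and 13 lower, and the Taf genes 5 of 23 higher and 11 lower, which became 1 and 24 and 1 and 19 with TPM. The median difference was 0.53 for Pol II as deposited, but -0.80 with TPM and -0.41 with quantile normalization. For Mediator it was -0.15, -1.29 and -0.14, and for the Taf genes -0.26, -1.27 and -0.33. The share of all reads on genes that fell on the members, which depends on no scaling, was 0.521 to 0.524% in the Unt libraries and 0.346 to 0.368% after DOX. For D_DXZ the share was 0.366 to 0.396%, and for D_MgHCF 0.504 to 0.701%. In D_MgHCF replicate 1, the library with the highest share, Polr2a alone held 53461 of the 116601 reads on members. The D_MgHCF share therefore does not describe the members as a set. All 24 lower members were also below 0 with TPM and with quantile normalization. Of the 19 higher members, 6 were above 0 with both (Polr2f, Polr2l, Med16, Med30, Taf10 and Taf13), 13 fell below 0 with TPM, and 5 of those also with quantile normalization. With TPM, all 19 were still above the median of the genes with a mean of at least 1 FPKM (-0.91). Of the 24 lower members, 22 were below that median.

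**Figure D1:**
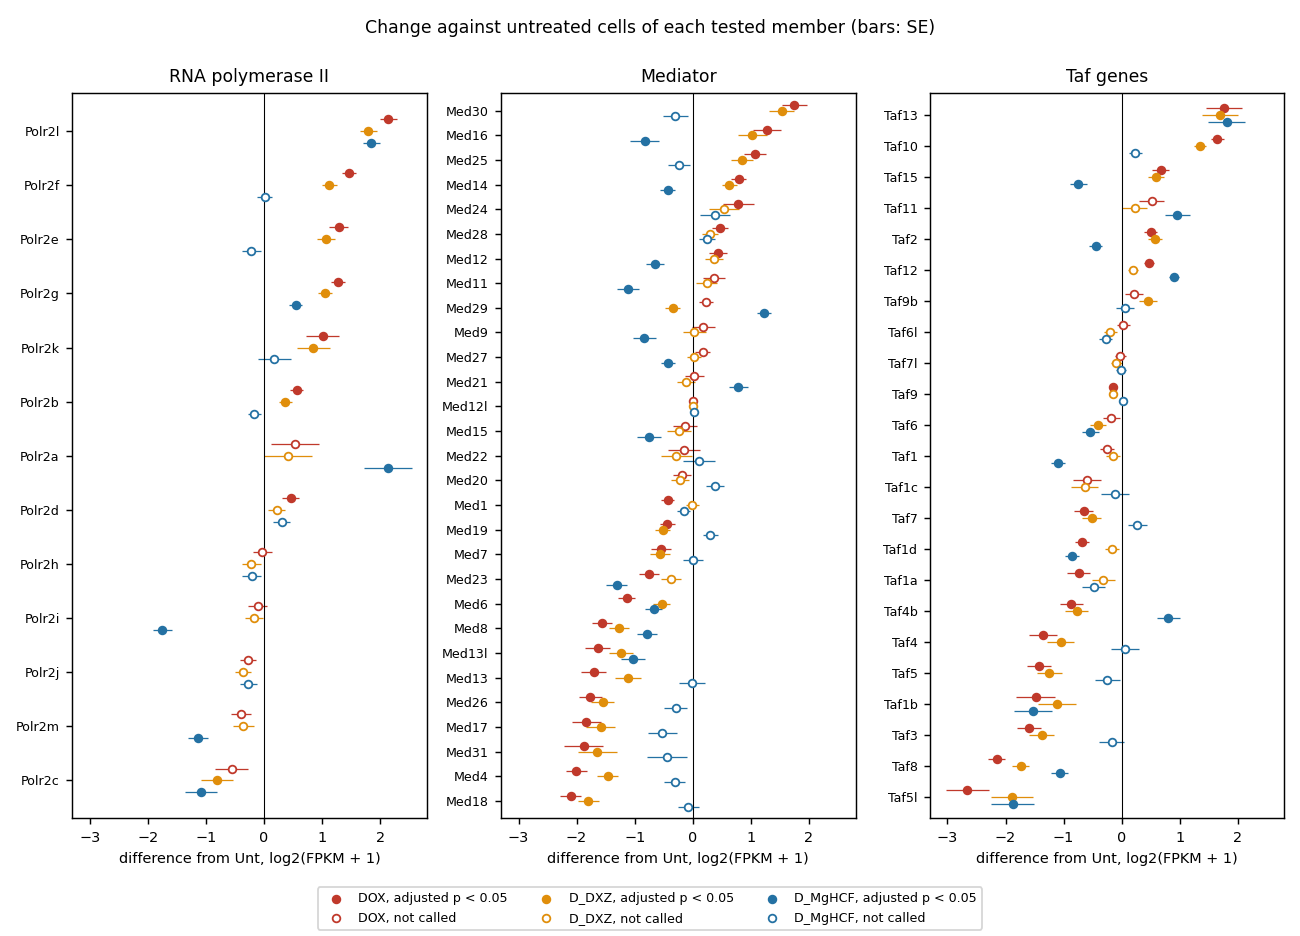
Difference from Unt on the log2(FPKM + 1) scale (x axis) of each tested member (y axis, ordered by DOX) in DOX, D_DXZ and D_MgHCF, with bars for the SE and filled points for an adjusted p under 0.05. In DOX the called Pol II genes all lie to the right, while Mediator runs from Med18 (-2.10) to Med30 (1.74) and the Taf genes from Taf5l (-2.66) to Taf13 (1.76). With TPM, 13 of the 19 rises in DOX turn negative and none of the 24 falls turns.

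Of the 5 Pol II subunits shared with Pol I and Pol III, 4 were higher. Of all genes at 10 FPKM or more, the range of 12 of the 13 Pol II genes, 65.2% were higher and 15% lower. The difference between the shared subunits and the others was not tested. Polr2l, a small zinc-binding subunit needed for assembly, stood at 9.23, 9.84 and 9.23 FPKM in Unt and 40.1, 49.6 and 45.9 FPKM in DOX. The groups were far apart, and the difference was 2.14 ± 0.14 (limma adjusted p = 1.06e-05), or 4.8-fold on mean FPKM. Polr2f, another shared subunit, rose from 23.3, 23.9 and 27.2 to 63.4, 72.4 and 74.2 FPKM, again without overlap and by 1.46 ± 0.12. Polr2e (1.29 ± 0.16) and Polr2k (1.01 ± 0.29) were also higher, but turned to -0.03 and -0.30 with TPM, and Polr2k lost its call without Unt replicate 1, Unt replicate 2 or DOX replicate 3 (highest adjusted p = 0.0622). Polr2h, the fifth shared subunit, was not called (-0.03 ± 0.17). Near-identical copies elsewhere in the genome were found for Polr2k (6 genes), Polr2l (3) and Polr2f (2), so their reads may be split. Near-identical stretches in other genes were found for 28 members in all, among them Med4, Med21, Taf5l, Taf10 and Taf13.

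Of the 7 subunits particular to Pol II, 3 were higher, again beside 65.2% of all genes at 10 FPKM or more. Polr2b, which forms the active cleft with Polr2a, stood at 26.9, 27.9 and 27.8 FPKM in Unt and 35.5, 44.4 and 44.3 FPKM in DOX. The groups did not overlap, but the difference of 0.57 ± 0.11 (limma adjusted p = 0.00195) became -0.75 with TPM and -0.26 with quantile normalization. The stalk subunits Polr2g (1.27 ± 0.12) and Polr2d (0.46 ± 0.15) were higher as well and likewise turned with both. Polr2a was at 41.3, 43.6 and 45.7 FPKM in Unt and 73.7, 56.5 and 60.3 FPKM in DOX, without overlap, yet its difference of 0.53 ± 0.41 did not pass the test (limma adjusted p = 0.406). In a fit of Unt and DOX alone, without the wide spread of Polr2a in D_MgHCF, the adjusted p was 0.0133. The ratio of Polr2a to Polr2b within a library, which no single factor per library can alter, though quantile normalization can, was 1.54 to 1.65 in Unt and 1.27 to 2.08 in DOX.

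Mediator is given by its parts, whose difference was not tested. Of the 8 middle genes tested 0 were higher and 6 lower, and of the 7 head genes 0 were higher and 4 lower. Of the 5 tail genes 3 were higher and 1 lower, and of the 4 genes between head and tail 2 were higher and 0 lower, where 2 of the 3 tail rises and 1 of the 2 others turned negative with TPM. Of all genes with a mean from 1 to 10 FPKM, 17.9% were higher and 45.4% lower. Of those at 10 FPKM or more, among them Med30, 65.2% were higher and 15% lower. Med18, a head subunit, fell, being 4.5, 4.39 and 4.49 FPKM in Unt and 0.495, 0.273 and 0.0865 FPKM in DOX, which is 226, 210 and 219 reads against 15, 7 and 2. Its difference was -2.10 ± 0.18 (limma adjusted p = 1.5e-05), and the pseudocount of 1 understates a change at such levels. Med4, a middle subunit, fell from 7.06, 8.52 and 7.24 to 1.67, 1 and 0.826 FPKM, without overlap and by 2.01 ± 0.18 on the log2 scale. Med1, the middle subunit that contacts nuclear receptors, fell less, from 8.06, 7.95 and 7.77 to 5.45, 5.72 and 5.63 FPKM (-0.44 ± 0.11).

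On the rising side, Med30 stood at 115, 116 and 111 FPKM in Unt and 322, 418 and 423 FPKM in DOX, every DOX library being far above every Unt library. The difference was 1.74 ± 0.22 (limma adjusted p = 9.95e-05), but it was 0.38 with TPM and 0.07 with quantile normalization, where it was no longer called. The tail subunit Med16 rose from 5.85, 7.45 and 7.99 to 16.9, 19.9 and 18.7 FPKM (1.28 ± 0.25), which TPM reduced to 0.02. Near-identical matches to it were found in 118 other genes, but each spans only 150 to 166 bases, where Med16 has 4663 exonic bases. Med14, the scaffold, stood at 11, 11.4 and 11.2 FPKM in Unt and 17.9, 20.1 and 22.7 FPKM in DOX, and its difference of 0.79 ± 0.13 turned to -0.47 with TPM. Med17, the head subunit next to the scaffold, fell by 1.83 ± 0.25 on the log2 scale, and the ratio of Med14 to Med17 within a library was 0.963 to 1.21 in Unt and 6.67 to 11.7 in DOX.

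The kinase module did not move as a unit. Med13, which joins the module to the core, fell from 9.68, 8.67 and 7.23 to 2.51, 1.69 and 1.57 FPKM (-1.71 ± 0.22), and its paralog Med13l from 5.74, 5.52 and 5.66 to 1.36, 0.914 and 1.14 FPKM (-1.64 ± 0.21). In neither gene did the groups overlap. Med12, which activates the kinase, stood at 10.7, 11.7 and 14.4 FPKM in Unt and 15.1, 16.8 and 18.7 FPKM in DOX. Its difference of 0.44 ± 0.15 (limma adjusted p = 0.047) turned to -0.81 with TPM and lost its call when any of 7 libraries was left out (Unt replicates 1 and 2, DOX replicates 2 and 3, and all 3 of D_DXZ), with an adjusted p of up to 0.168. The ratio of Med12 to Med13 within a library was 1.11 to 1.99 in Unt and 6.03 to 11.9 in DOX. Med12l held at most 7 reads in a library.

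**Figure D2:**
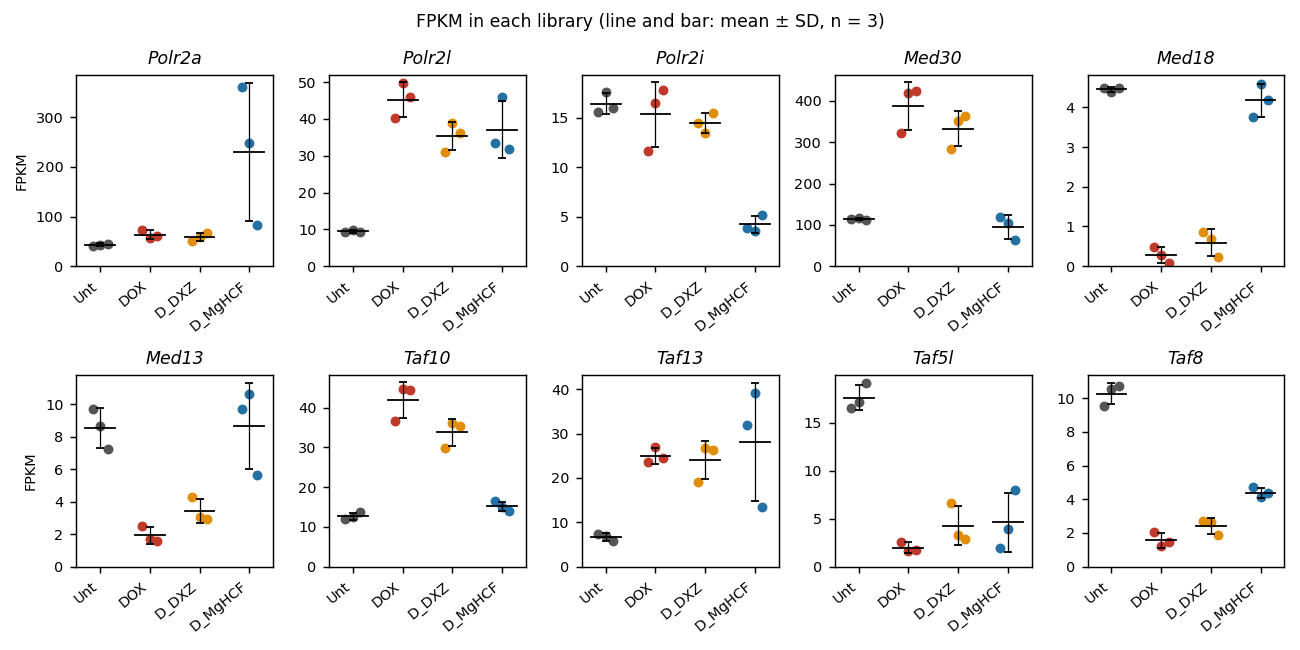
FPKM (y axis, from 0) of 10 members in each library by group (x axis), with the mean and SD of 3 libraries. Polr2l, Med30, Taf10 and Taf13 are high in DOX and D_DXZ, and TPM leaves their difference between DOX and Unt above 0. Polr2l and Taf13 are also high in D_MgHCF, with means of 37.1 and 28.2 FPKM against 9.43 and 6.69 in Unt. Med18, Med13, Taf5l and Taf8 are low in DOX, Polr2i is low in D_MgHCF, and Polr2a in D_MgHCF spreads from 83.2 to 360.1 FPKM.

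Among the Taf genes, Taf5l fell most on the log2(FPKM + 1) scale. Taf5l, the SAGA counterpart of Taf5, fell from 16.6, 17.1 and 19.1 to 2.6, 1.64 and 1.67 FPKM, a difference of -2.66 ± 0.37 (limma adjusted p = 2.01e-04). Taf8 fell from 9.57, 10.6 and 10.7 to 2.06, 1.21 and 1.43 FPKM (-2.15 ± 0.15). Taf10, the histone-fold partner of Taf8 in TFIID, moved the other way, from 11.9, 12.5 and 13.7 to 36.7, 44.8 and 44.4 FPKM (1.65 ± 0.11). No group overlapped in these genes, and the ratio of Taf10 to Taf8 within a library was 1.18 to 1.28 in Unt and 17.8 to 37.2 in DOX. Taf10 lies opposite Ilk along 45.9% of its exonic bases, and the libraries do not keep strand, so reads of both cannot be told apart there.

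Taf13, which pairs with Taf11, rose from 7.43, 6.8 and 5.82 to 23.6, 27.1 and 24.4 FPKM (1.76 ± 0.31), and Taf11 was not called (0.52 ± 0.22). Their ratio within a library was 0.446 to 0.614 in Unt and 1.27 to 1.44 in DOX. Of the core subunits, Taf4 (-1.35 ± 0.24) and Taf5 (-1.43 ± 0.21) fell, as did Taf3 (-1.59 ± 0.21), which reads a histone mark of active promoters. Taf1, the largest TFIID subunit, stood at 15.5, 14 and 12 FPKM in Unt and 10.4, 11.4 and 12.3 FPKM in DOX, with overlapping groups and no call (limma -0.26 ± 0.12, adjusted p = 0.117). Taf15 was at 45.4 to 54.9 FPKM in Unt and 74.4 to 87 in DOX, a rise of 0.67 ± 0.14 that turned to -0.67 with TPM and -0.53 with quantile normalization. Of the 4 SL1 genes 0 were higher and 3 lower, beside 17.9% and 45.4% of all genes with a mean from 1 to 10 FPKM.

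The paralog pairs gave a mixed picture. Taf4b fell with Taf4, by 0.87 ± 0.20 on the log2 scale, and the ratio of Taf4b to Taf4 was 0.235 to 0.28 in Unt and 0.243 to 0.294 in DOX. The ratio of Taf5l to Taf5 was 2.48 to 2.98 in Unt and 0.76 to 1.25 in DOX. Taf6 (-0.18 ± 0.14) and Taf6l (0.03 ± 0.11) were not called. Taf7 fell from 1.14, 1.05 and 0.657 to 0.14, 0.212 and 0.34 FPKM, the latter from 7, 9 and 13 reads, and Taf7l held at most 13 reads. Taf9 was called lower (-0.16 ± 0.05) on 8, 5 and 7 reads in Unt and 1, 0 and 0 in DOX, a call lost when any of 8 libraries was left out (each of Unt and DOX, and D_DXZ replicates 2 and 3). Taf9b, at 0.207 to 0.315 FPKM in Unt and 0.396 to 0.52 in DOX, was not called.

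Calls in DOX are given here by level. Of the 28 members with a mean from 1 to 10 FPKM over the 12 libraries, those compared included, 0 were higher and 21 lower (75%), beside 17.9% higher and 45.4% lower of 6949 genes in that range. Of the 32 members at 10 FPKM or more, 19 were higher (59.4%) and 1 was lower, Med19 of the middle part (-0.44 ± 0.13), beside 65.2% and 15% of 4566 genes. The 2 ranges were not filled alike, since 12 of 13 Pol II genes were in the upper range, but 13 Mediator and 7 Taf genes. Within the upper range the median differences were, as deposited, 0.55 for Pol II, 0.44 for Mediator and 0.52 for the Taf genes, beside 0.93 for all genes there. With quantile normalization they were -0.33, 0.26 and 0.30, so that Pol II turned negative. In the lower range the median was -1.25 for the members and -0.40 for all genes. With TPM the members' medians were -2.07 in the lower and -0.75 in the upper range, beside -1.17 and -0.37 for all genes. Spearman's rho between level and difference was 0.789 across 60 members and 0.479 across 11515 genes, with a level that includes the libraries compared. The level was also taken from the Unt libraries alone, an alternative added after the values were seen. From 1 to 10 FPKM, 5 of 29 members were then higher and 17 lower, beside 22.95% and 43.79% of all genes there. Above that, 14 of 31 were higher and 5 lower, beside 52.75% and 27.21%. Spearman's rho was 0.482 across members and 0.277 across all genes. Taken from the D_MgHCF libraries, which are in neither group, the level gave 3 higher and 22 lower of 35, beside 19.93% and 37.31%. In the upper range it gave 16 and 1 of 26, beside 57.38% and 21.3%, and rho was 0.668 and 0.326. With the length of the gene in the genome, rho was -0.232 and -0.224.

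**Figure D3:**
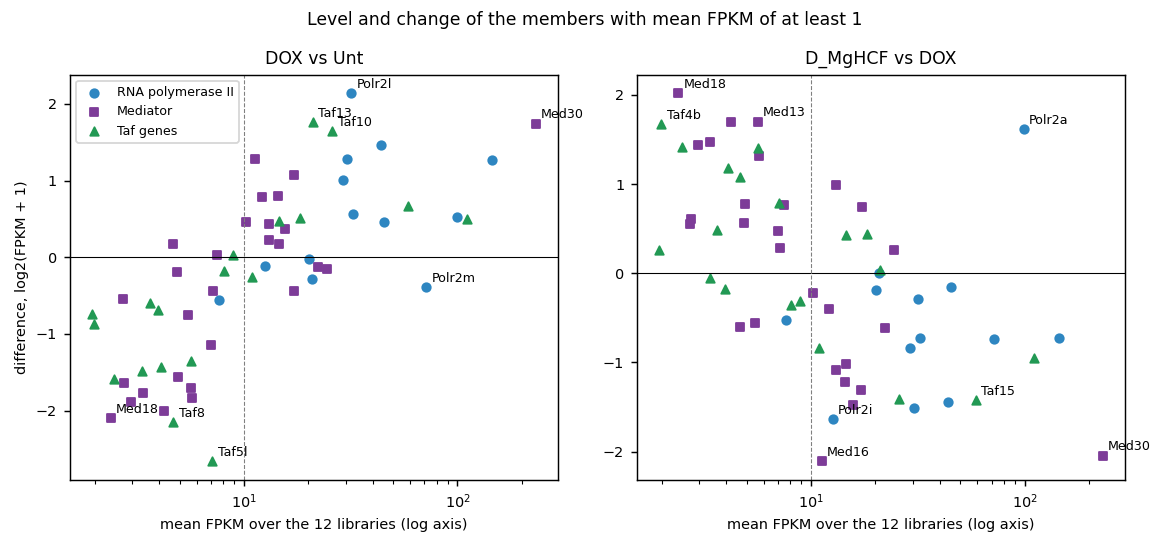
Mean FPKM over the 12 libraries (x axis, log scale) and difference on the log2(FPKM + 1) scale (y axis) of the 60 members with a mean of at least 1 FPKM, by complex, for DOX against Unt and D_MgHCF against DOX, with a dashed line at 10 FPKM. In DOX 0 members left of the line rose and 21 fell, and right of it 19 rose and 1 fell, where TPM turns 13 of the rises negative. The panel of D_MgHCF against DOX shares the DOX libraries with the first, with the opposite sign, so the panels are not independent, and Polr2a lies apart there at 1.61.

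The make-up of each list within a library does not depend on a factor that scales the whole library, as TPM and the deposited correction do, but quantile normalization can alter it. Med30 made up 27.6 to 30.8% of the summed FPKM of the Mediator genes in Unt and 57.1 to 61% in DOX. Without being called itself, Polr2m was 21.9 to 22.3% of the Pol II sum in Unt and 10.1 to 10.6% in DOX, while Polr2g was 18.8 to 19.4% in Unt and 28.2 to 29.4% in DOX. Polr2l was 2.03 to 2.31% in Unt and 6.25 to 6.88% in DOX. Of the Taf sum, Taf5l was 5.63 to 6.69% in Unt and 0.436 to 0.772% in DOX, and Taf10 was 4.05 to 4.79% and 10.9 to 12%. The sums and the medians moved apart: the Mediator sum was 374 to 403 FPKM in Unt and 564 to 703 FPKM in DOX, while the median Mediator gene was 8.09 to 8.63 in Unt and 5.34 to 5.77 FPKM in DOX. The median Taf gene was 6.69 to 7.43 in Unt and 2.12 to 2.81 FPKM in DOX.

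**Figure D4:**
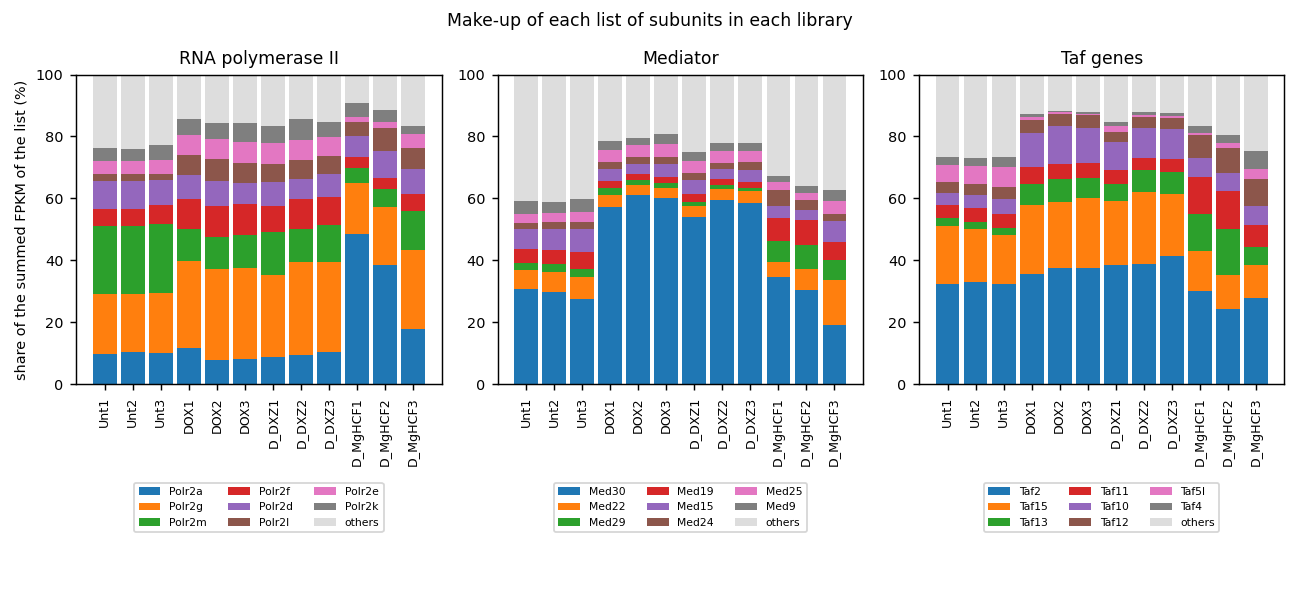
Share of the summed FPKM of each list (y axis, %) held by the 8 genes with the highest share in any library and by the others, in each library (x axis). Med30 holds 57.1 to 61% of Mediator in DOX and 53.8 to 59.5% in D_DXZ, and Polr2a holds 17.9 to 48.5% of Pol II in D_MgHCF.

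The comparison of D_DXZ with DOX asks whether dexrazoxane altered this response. None of the 65 members was called by limma (lowest adjusted p = 0.221), beside 0% of all genes, and voom on the recovered reads called 0 members. At an unadjusted p under 0.05, 6 members were higher and 5 lower, beside 4.56% and 4.97% of all genes. The lowest p was that of Med29, a Mediator subunit of animals, at 12.5, 11 and 10.9 FPKM in DOX and 7.64, 7.86 and 6.55 FPKM in D_DXZ. The groups did not overlap, with a difference of -0.58 ± 0.12 (limma unadjusted p = 7.48e-04, adjusted p = 0.221). Taf1d of SL1 followed, at 2.8, 2.98 and 3.24 FPKM in DOX and 5.2, 4.2 and 4.9 in D_DXZ (0.52 ± 0.12, limma adjusted p = 0.252). Med1, at 7.08, 8.62 and 7.99 FPKM in D_DXZ, was above all DOX libraries and near Unt, with a difference from DOX of 0.43 ± 0.11 (limma adjusted p = 0.305).

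Against Unt, D_DXZ had 15 members higher and 22 lower, beside 15.9% and 18% of all genes tested. From 1 to 10 FPKM, 0 of 28 members were higher and 19 lower, beside 13.84% and 42.08% of all genes there. At 10 FPKM or more, 14 of 32 were higher and 2 lower, beside 59.4% and 15.29%. The level includes the libraries compared. Pol II had 6 higher and 1 lower, Mediator 4 and 12, and the Taf genes 5 and 9. With TPM these counts were 1 and 7, 0 and 25, and 1 and 19. The Unt libraries are those of the comparison with DOX, so the values are only set side by side. In D_DXZ and DOX respectively, Polr2l was 1.80 and 2.14 above Unt, Taf13 1.70 and 1.76, and Med30 1.53 and 1.74. For Taf5l the differences from Unt were -1.89 and -2.66, for Med18 -1.80 and -2.10, and for Taf8 -1.74 and -2.15. Of the 15 rises in D_DXZ, 10 turned negative with TPM, and all 22 falls kept their sign.

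D_MgHCF against DOX asks whether the nanocatalysts altered the response. Here 23 members were higher and 22 lower, beside 31.4% and 20.1% of all genes tested and 33.5% and 40.1% of those with a mean of at least 1 FPKM. Pol II had 1 higher and 7 lower (7 and 2 with TPM), Mediator 14 and 10, and the Taf genes 8 and 5. All 23 rises kept their sign with TPM and quantile normalization, whereas 12 of the 22 falls turned with TPM and 4 with quantile normalization. Of the members with a mean from 1 to 10 FPKM, 17 of 28 were higher and 3 lower, beside 45.4% and 22.2% of all genes in that range. At 10 FPKM or more 4 of 32 were higher and 19 lower, beside 15.5% and 67.3%. These counts share the DOX libraries with those of DOX against Unt, and the level includes them. With the Unt level alone, 15 of 29 were higher and 4 lower from 1 to 10 FPKM, beside 41.54% and 25.85% of all genes. At 10 FPKM or more, 6 of 31 were higher and 18 lower, beside 21.24% and 60.01%.

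The head and middle of Mediator gave most of its rises, with 5 of 7 head and 6 of 8 middle genes higher and 1 of each lower. Of all genes, 45.4% were higher and 22.2% lower from 1 to 10 FPKM, and 15.5% and 67.3% at 10 or more. The difference between the parts was not tested, and the DOX libraries are those of DOX against Unt, with the opposite sign. Med18 stood at 3.76, 4.6 and 4.18 FPKM in D_MgHCF, a difference from DOX of 2.02 ± 0.18 (limma adjusted p = 1.37e-05) and from Unt of -0.08 ± 0.18, not called. Med13 stood at 9.67, 10.6 and 5.65 FPKM, 1.70 ± 0.22 above DOX and not called against Unt (-0.01 ± 0.22). Med13l, at 2.02, 1.5 and 3.57 FPKM, was 0.61 ± 0.21 above DOX and still lower than Unt (-1.03 ± 0.21). In the Taf genes, Taf4b was 1.67 ± 0.20 and Taf3 1.42 ± 0.21 above DOX.

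Of the 5 tail genes 4 were lower than DOX and 0 higher, and 2 of these falls turned positive with TPM. Of all genes, 22.2% were lower and 45.4% higher from 1 to 10 FPKM, and 67.3% and 15.5% at 10 or more. Med16, at 5.95, 3.28 and 2.11 FPKM, and Med30, at 119, 104 and 63.4 FPKM, led the falls with differences of -2.11 ± 0.25 and -2.05 ± 0.22. Taf10 stood at 16.4, 15 and 14 FPKM, with a difference from DOX of -1.41 ± 0.11 (limma adjusted p = 6.62e-06) and no call against Unt (0.24 ± 0.11). Taf15 differed from DOX by -1.42 ± 0.14 and from Unt by -0.75 ± 0.14, and Polr2e from DOX by -1.51 ± 0.16. Med12 (-1.09 ± 0.15) and Taf1 (-0.83 ± 0.12) were lower than DOX as deposited, but were at 0.03 and 0.24 with TPM.

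Against Unt, D_MgHCF had 9 members higher and 22 lower, beside 24.3% and 15.7% of all genes and 22.5% and 29% of those with a mean of at least 1 FPKM. All 31 kept their sign with TPM and quantile normalization. Pol II had 3 higher and 3 lower, Mediator 2 and 11, and the Taf genes 4 and 8. Without D_MgHCF replicate 3, Pol II had 5 higher and 5 lower and Mediator 4 and 13. Mediator also had 4 higher without D_MgHCF replicate 1, and 7 lower without Unt replicate 3 or D_MgHCF replicate 2.

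Polr2a (chr11:69733997-69758637, minus strand, GRCm38), which encodes the catalytic subunit with the C-terminal repeats, stood at 360.1, 247 and 83.2 FPKM in D_MgHCF, all above the highest library of the other groups (73.7 FPKM, in DOX) but far from each other, and the lowest was replicate 3. The difference was 2.14 ± 0.41 from Unt (limma adjusted p = 0.00273) and 1.61 ± 0.41 from DOX (adjusted p = 0.0081). As single libraries were left out, the difference from Unt ranged from 1.70 to 2.75 and kept its call. In a fit of D_MgHCF and DOX alone, the adjusted p against DOX was 0.0598.

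Of the other Pol II subunits, Polr2l and Polr2g (0.54 ± 0.12) were also higher than Unt, and Polr2i, Polr2m and Polr2c (-1.08 ± 0.28) were lower. Polr2b stood at 26.2, 25.2 and 22.1 FPKM, with no call against Unt (-0.16 ± 0.11), so that the ratio of Polr2a to Polr2b was 13.7, 9.83 and 3.77 in the 3 libraries, against 1.54 to 1.65 in Unt. Polr2i, a subunit that contributes to the accuracy of transcription, stood at 3.85, 3.6 and 5.21 FPKM against 15.6, 17.6 and 16 FPKM in Unt, without overlap (-1.75 ± 0.16, limma adjusted p = 4.6e-05). It lies opposite Tbcb over 26.8% of its exonic bases. Polr2m was lower at 35.4, 37.7 and 58.9 FPKM (-1.13 ± 0.17). Polr2l, at 33.6, 46 and 31.8 FPKM, was 1.85 ± 0.14 above Unt, and Polr2k, at 32.8, 23.9 and 12.3 FPKM, was not called (0.18 ± 0.29).

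Among the Taf and Mediator genes, Taf13 stood at 31.9, 39.3 and 13.4 FPKM (1.80 ± 0.31 from Unt) and its partner Taf11 at 31.7, 32.8 and 15.8 FPKM (0.96 ± 0.22), with replicate 3 the lowest in both. Med29 stood at 23.6, 26.8 and 21.3 FPKM against 8.32, 9.68 and 11 FPKM in Unt (1.22 ± 0.12), and Med21, a middle subunit, at 11.5, 14.7 and 8.64 FPKM (0.78 ± 0.16). Each was above every library of the other groups. Stretches of Med21 have near-identical matches in 4 other genes, among them the ribosomal protein gene Rps26, so its reads may be mixed with theirs. Taf4b, at 3.83, 5.56 and 3.76 FPKM, was 0.80 ± 0.20 above Unt while Taf4 was not called (0.05 ± 0.24), and their ratio was 0.667, 0.748 and 0.289. On the other side, Med23 (-1.31 ± 0.17), Med11 (-1.11 ± 0.19), Taf1 (-1.09 ± 0.12) and Taf1b (-1.53 ± 0.33) were lower than Unt. Taf5l, low in DOX, was also low here at 1.95, 3.91 and 7.95 FPKM (-1.88 ± 0.37).

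D_MgHCF against D_DXZ had 22 members higher and 20 lower, beside 29.4% and 19% of all genes tested. From 1 to 10 FPKM, 15 of 28 members were higher and 3 lower, beside 39.99% and 21.59% of all genes there. At 10 FPKM or more, 5 of 32 were higher and 17 lower, beside 15.9% and 63.07%. The level includes the libraries compared. Pol II had 1 higher and 6 lower, Mediator 12 and 9, and the Taf genes 9 and 5. With TPM these counts were 7 and 1, 18 and 2, and 13 and 1. All 22 rises kept their sign with TPM and quantile normalization, and 13 of the 20 falls did so with both.

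Related machinery was counted in the same way for DOX against Unt. The general transcription factors had 4 higher and 8 lower of 19, the elongation factors 6 higher and 8 lower of 18, the partners of the Mediator kinase 2 higher and 1 lower of 3, Pol I 1 higher and 5 lower of 8 and Pol III 2 higher and 5 lower of 11. Of all genes tested, 18.6% were higher and 19.9% lower, and of those with a mean of at least 1 FPKM 36.7% and 33.3%. With TPM, 2 of the 15 rises in the related machinery stayed above 0, and all 27 falls stayed below it. Gtf2h5, the smallest subunit of TFIIH, rose from a mean of 15.4 to 57.1 FPKM (1.82 ± 0.14), and the small Pol III subunit Polr3k from 10.2 to 26.8 FPKM (1.30 ± 0.14). Tbpl1, a relative of the TATA-binding protein, fell from 22.7 to 2.58 FPKM (-2.79 ± 0.37), and Polr1c, shared by Pol I and Pol III, from 27.6 to 6.48 FPKM (-1.94 ± 0.16). In D_MgHCF against DOX the general factors had 9 higher and 7 lower of 19 and the elongation factors 7 higher and 7 lower of 18. The shares were 31.4% and 20.1% of all genes tested, and 33.5% and 40.1% of those with a mean of at least 1 FPKM. Across all the related lists, 12 of the 20 falls in this comparison stayed below 0 with TPM, and all 26 rises stayed above it.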

How the data were processed

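Total RNA of H9c2(2-1) cells was extracted with TRIzol, selected with poly-T beads and made into unstranded NEBNext Ultra libraries, read as pairs of 150 bp on a NovaSeq. The authors deposited FPKM of 54345 genes for the 12 libraries, and the submitters' processing notes name HISAT2 2.0.5 and GRCm38 (mm10), whereas the counting program is not given in the sources used here. Whole reads could be recovered for 100% of values (tolerance 0.05 reads) from the step in FPKM × length that 1 read makes. The steps showed that the deposited FPKM were scaled by median-ratio factors of the recovered reads rather than by their totals.

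Tests were run with limma 3.58.1 in R 4.3.3 (trend) on log2(FPKM + 1), in a single fit of the 4 groups over 25044 genes above 0 in at least 3 libraries. A gene was called at a Benjamini-Hochberg adjusted p under 0.05. On simulated data for DOX against Unt, over 25044 genes, 57 of 100 changes of 1 and 96 of 100 changes of 2 on the log2 scale were recovered, and 5.37% of unchanged genes had p under 0.05. The criterion was moved to the change of 2 after that of 1 was missed. All simulated libraries were drawn around the Unt means, with 1 setting of the spread for all genes and groups. They lack the wider spread of the D_MgHCF libraries, so the rates in the real data may differ.

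The members and lists were chosen with earlier results of these data known, and the split at 10 FPKM, the ratios and the promoters shown were chosen after values were seen. The named members are 12 listed by role, the 2 largest rises and falls per complex in DOX against Unt, D_MgHCF against DOX and D_MgHCF against Unt (called, mean of at least 1 FPKM in the higher group, no overlap), the 2 lowest p in D_DXZ against DOX, and the paralog pairs, with the 2 largest rises and falls in DOX against Unt among the related machinery, where Polr3i and Polr3j of the Pol III list had no match by name. Other members are named for their level, their partner or their part of a complex. Overlaps and near-identical stretches (at least 95% over 150 bases, blastn 2.17.0) were taken from GENCODE M21, and promoters from RefSeq. As alternatives, the fit was repeated with 0.1 as pseudocount, with genes of at least 1 FPKM, with no filter, with a replicate block, on the 2 groups compared, on TPM, after quantile normalization, with voom on the recovered reads, and without each library in turn. The level from Unt or D_MgHCF libraries alone was added after the values were seen.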

Additional observations from a re-analysis of the deposited data

How the results depend on the processing

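A pseudocount of 0.1 and voom on the recovered reads left all 36 counts of members higher or lower within 1.5 times. TPM and quantile normalization moved most, and the cause was not tested. With TPM, DOX against Unt had 1 Pol II gene higher and 7 lower, 1 Mediator gene higher and 24 lower, and 1 Taf gene higher and 19 lower. D_DXZ against Unt had 1 and 7, 0 and 25, and 1 and 19 in the same order. D_MgHCF against DOX had 7 Pol II genes higher and 2 lower, 2 Mediator genes lower, and 17 Taf genes higher and 1 lower, and D_MgHCF against D_DXZ 7 Pol II genes higher and 1 lower, 2 Mediator and 1 Taf genes lower. With quantile normalization, Pol II had 3 higher and 6 lower in DOX and 3 and 4 in D_DXZ against Unt, and 5 and 3 in D_MgHCF against DOX and against D_DXZ. Taf genes had 3 higher in DOX and in D_DXZ against Unt, and Mediator had 4 higher in D_MgHCF against Unt and 9 against DOX. Fits of 2 groups gave 3 Pol II genes lower in DOX and 4 in D_DXZ against Unt, 6 Mediator genes lower in D_MgHCF against Unt, and 0 Pol II genes higher in D_MgHCF against DOX or D_DXZ. The Pol II gene lower in D_DXZ against Unt became 2 with the filter at 1 FPKM and 0 without a filter. Single differences that reversed were, in DOX against Unt, Polr2b (-0.75 with TPM, -0.26 with quantile normalization), Polr2k (-0.30, TPM), Med12 (-0.81, TPM), Med14 (-0.47, TPM), Taf15 (-0.67 and -0.53) and Taf6l (-1.14, TPM). In D_MgHCF against DOX they were Polr2b (0.443 and 0.0201), Polr2l (0.88 and 0.59), Polr2k (0.33, TPM), Med12 (0.0263, TPM) and Taf1 (0.24, TPM), and in D_MgHCF against Unt Taf9 (-0.14, quantile normalization). With each library left out, Pol II had 0 to 3 lower in DOX and 0 to 3 in D_DXZ against Unt, and 3 to 5 higher and 3 to 5 lower in D_MgHCF against Unt, with each highest count without D_MgHCF replicate 3. Mediator had 4 to 8 higher in DOX against Unt (4 without Unt replicate 1, Unt replicate 2 or DOX replicate 2), and 2 to 4 higher and 7 to 13 lower in D_MgHCF against Unt (4 without D_MgHCF replicate 1 or 3, 7 without Unt replicate 3 or D_MgHCF replicate 2). Most libraries with the same replicate number did not deviate together (18 pairs, r from -0.314 to 0.306, 2 over 0.1). The 2 over 0.1 were DOX with D_DXZ, at 0.306 for replicate 1 and 0.22 for replicate 3, where replicate 2 was at 0.0334. Of 36 pairs with unlike numbers, 5 were over 0.1. Since 6 of 12 libraries correlated best with their own number, the numbers were not taken as pairs. With a replicate block, 0 of all genes were called in D_DXZ against DOX. A replicate block left 0 Pol II genes lower in D_DXZ against Unt in place of 1 and moved no other count by over 1.5 times. At these depths the members with at most 13 reads in every library (Med10, Med12l, Taf7l, Taf9) could not be resolved.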
